A study of Mus musculus with 31 samples.

Results

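The microRNAs described are the 4 mature strands cut from the neighbouring miR-132 and miR-212 hairpins: miR-132-3p, miR-132-5p, miR-212-3p and miR-212-5p. They were taken by name, as both arms of both hairpins, from the 1966 mature mouse microRNAs counted in the series, and each was followed over all 31 small RNA libraries. Each library came from the right hippocampus of a C57Bl/6 J mouse, and since the labels call the replicates biological, each was taken as 1 animal. Mice lacking the serotonin transporter (5-HTT KO, called KO here) had exercise (KO-exercise, n = 5) or corticosterone (KO-corticosterone, n = 2), each for 4 weeks, or water (KO-water, n = 6). Wild-type mice had exercise (WT-exercise, n = 5) or corticosterone (WT-corticosterone, n = 6) for the same time, or water (WT-water, n = 7). The water groups stand for standard housing in the study's design, and corticosterone is the main glucocorticoid stress hormone of rodents. The labels state no dose, kind of exercise, age or sex.

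The miR-132 and miR-212 hairpins are cut from one neuronal transcript whose transcription is switched on by neuronal activity and neurotrophin signals through the transcription factor CREB. A hairpin yields a duplex of a 5p and a 3p strand. The strand that stays in Argonaute guides repression of messenger RNAs through its seed, bases 2 to 8 from its 5′ end. MiR-132 is best known in neurons for promoting dendrite growth and spine maturation. In the mouse hippocampus the locus has been linked to the integration of newborn neurons and to memory.

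The strands are printed below because their seeds decide which members can act on the same target sites. They are the RefSeq mature sequences (GRCm38.p6), 5′ to 3′, with the seed in capitals.
mmu-miR-132-3p: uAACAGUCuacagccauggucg
mmu-miR-212-3p: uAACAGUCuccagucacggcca
mmu-miR-132-5p: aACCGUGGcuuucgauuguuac
mmu-miR-212-5p: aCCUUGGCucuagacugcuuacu
The 3p strands shared the seed AACAGUC, which was carried by only these 2 of the mature mouse microRNAs in the RefSeq table. They were identical at 17 of 22 positions, including the first 9. Counted from 1 at the 5′ end, with the base of miR-132-3p first, the differences were A10C, C14U, U17C, U20C and G22A. The seeds of miR-132-5p and miR-212-5p were each carried by 1 microRNA of the table, so the 5p strands share a seed neither with each other nor with the 3p strands.

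The hairpins are shown because both lie in one stretch of one intron, and each holds both of its mature strands, here in capitals.
Mir212: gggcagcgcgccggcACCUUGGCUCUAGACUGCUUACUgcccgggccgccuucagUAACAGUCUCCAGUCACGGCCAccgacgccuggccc
Mir132: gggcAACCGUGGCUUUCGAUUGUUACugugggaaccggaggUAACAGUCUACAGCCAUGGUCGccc
In GRCm38, Mir212 spans chr11:75173388-75173478 and Mir132 spans chr11:75173682-75173747, both on the plus strand and 203 nt apart. Both sit in intron 1 (chr11:75172598-75173977) of 1700016P03Rik, a gene on the plus strand that spans chr11:75172560-75177633 in the GENCODE annotation. MiR-212-5p maps to chr11:75173403-75173425, miR-212-3p to chr11:75173443-75173464, miR-132-5p to chr11:75173686-75173707 and miR-132-3p to chr11:75173723-75173744.

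Between 1011285 and 4052174 counts per library fell on mature microRNAs. The neuronal markers (miR-124-3p, miR-9-5p, miR-128-3p, miR-138-5p and miR-218-5p) summed to group medians of 368840 to 409198 CPM (counts scaled to a library total of 1000000), and the liver marker miR-122-5p stayed at or below 15.5 CPM. The transporter mRNA is not a microRNA, so genotype could not be checked. Treated and water libraries stood apart in microRNAs outside the locus. MiR-126b-5p had 14.2 to 155 CPM in the 18 exercise and corticosterone libraries, against at most 0.520 CPM in the 13 water libraries, of which 11 had no count of it. MiR-122b-3p had 18.3 to 235 CPM in the treated and at most 5.09 CPM in the water libraries. The labels name no sequencing run or pool, so a difference between treated and water libraries in handling cannot be told apart from the treatments, while comparisons among treated libraries do not cross this divide. Among the 6 KO-water libraries, replicates 3, 4 and 6 (which the authors' KO and WT water table holds) scored -14.3 to -8.56 on the leading axis of variation within groups, and replicates 1, 2 and 5 scored 11.4 to 12.1. The main results that rest on KO-water are therefore given with each set of 3 as well. The sample codes begin with G or H, letters of unstated meaning, and the main results are also given within a letter where both groups have libraries of it.

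MiR-132-3p was the most abundant member in every group. Its mean ranked between 36 and 60 of the 1966 microRNAs, with 2459 to 5502 CPM by group. MiR-212-3p averaged 1102 to 2175 CPM, miR-132-5p 725 to 1065 CPM, and miR-212-5p 6.26 to 9.82 CPM. Strands of similar length were compared here, and a level in CPM is a share of the counts, not a number of molecules. MiR-212-5p rested on 4 to 36 counts per library. In the lowest library, KO-water 3, its 4 counts gave 2.08 CPM with an exact Poisson 95% interval of 0.566 to 5.32 CPM, which covers counting error only.

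**Figure D1:**
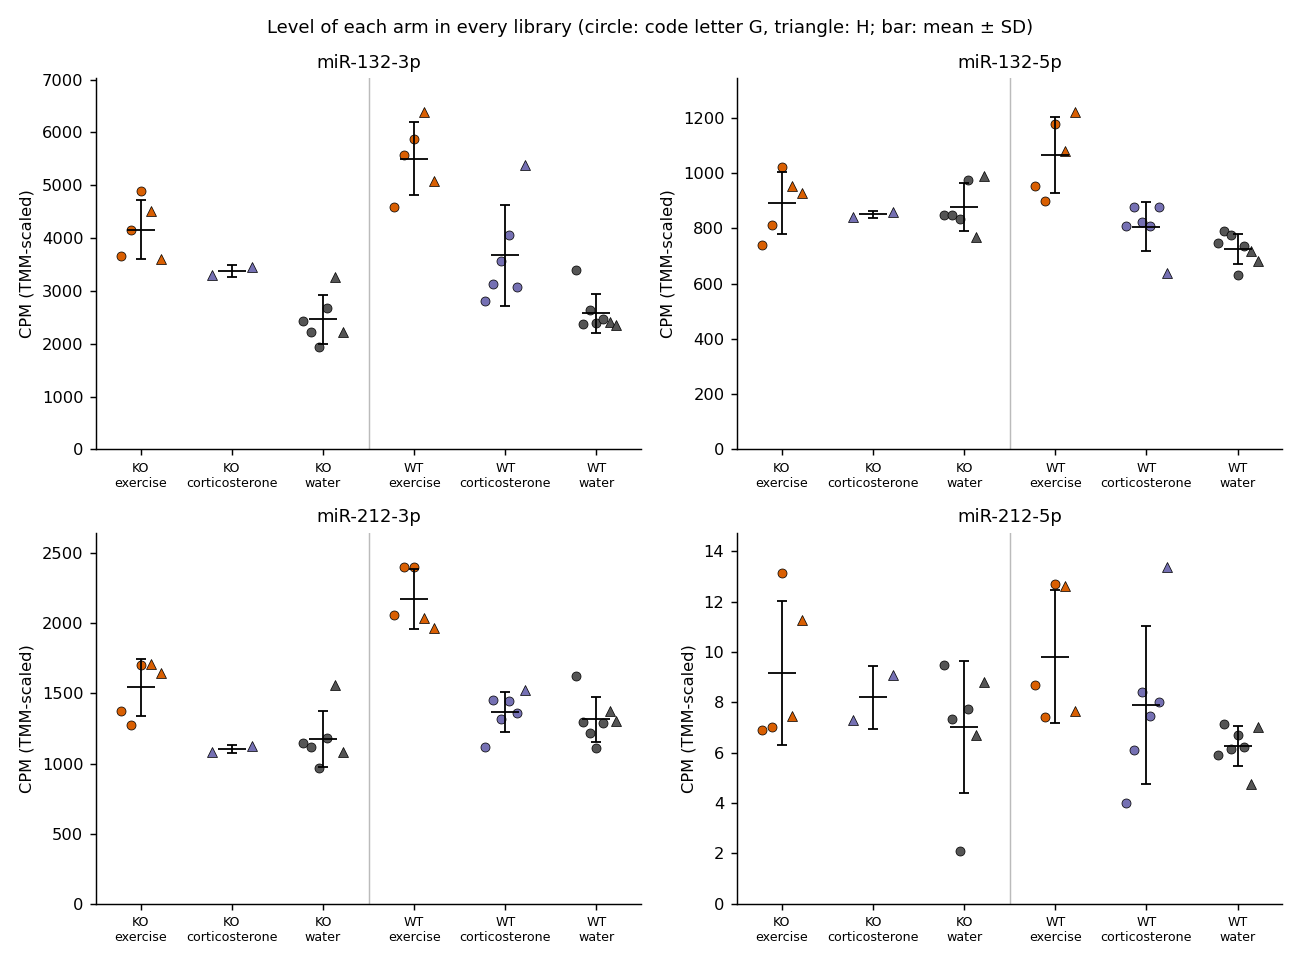
Level of each strand (y axis, TMM-scaled CPM from 0) in every library of the 6 groups (x axis); points are libraries, circles and triangles mark code letters G and H, and bars give mean ± SD. WT-exercise libraries lay above every WT-water library for all 4 strands, and miR-132-3p in KO-exercise lay above every KO-water library.

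Exercise in wild-type mice went with higher levels of all 4 strands. MiR-132-3p, the main guide of its hairpin, had 4594, 5582, 5874, 6384 and 5074 CPM in WT-exercise libraries, against a lowest, median and highest value of 2349, 2413 and 3393 CPM in WT-water libraries. The lowest exercised library exceeded the highest water library, WT-water 1, and 5.79% of the microRNAs tested were separated in this way and direction. The level was 2.18 times that in water, a log2 fold change of 1.13 ± 0.14 (SE), with an adjusted p of 0.000134 (edgeR quasi-likelihood test, Benjamini-Hochberg over 553 microRNAs). In this comparison 19.9% of the microRNAs tested were called higher (110 higher and 70 lower; 78 and 85 without scaling factors), so the call of 4 of 4 members stands against a background in which many microRNAs moved. By p, miR-132-3p ranked 3 and miR-212-3p ranked 7 of 553.

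MiR-212-3p, which carries the same seed, had 2057, 2404, 2406, 2036 and 1971 CPM in WT-exercise, against a lowest, median and highest value of 1110, 1294 and 1623 CPM in WT-water. Its groups did not overlap either, and it rose by 0.75 ± 0.12 on the log2 scale (adjusted p = 0.00097, edgeR quasi-likelihood). Together the strands with the AACAGUC seed made up 7676 ± 785 CPM in WT-exercise and 3890 ± 509 CPM in WT-water (SD, n = 5 and 7).

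The less abundant partner strands followed with smaller or less certain changes. MiR-132-5p had 953, 900, 1176, 1078 and 1220 CPM in WT-exercise, against a lowest, median and highest value of 630, 736 and 790 CPM in WT-water. It rose by 0.59 ± 0.13 on the log2 scale (adjusted p = 0.0053, edgeR quasi-likelihood). MiR-212-5p had 8.68, 7.42, 12.7, 12.6 and 7.66 CPM in WT-exercise, against a lowest, median and highest value of 4.75, 6.22 and 7.12 CPM in WT-water. The groups of both strands were separate too, with 5 of 5 exercised libraries above every water library. MiR-212-5p rose by 0.67 ± 0.22 (adjusted p = 0.0348, edgeR quasi-likelihood), a call that was lost without WT-exercise 3 or 4, or WT-water 1, 3 or 6 (log2 fold change 0.53 to 0.77 over all libraries left out in turn).

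Within code letter G, the WT-exercise over WT-water log2 fold change was 1.05 ± 0.19 for miR-132-3p and 0.84 ± 0.18 for miR-212-3p, and within letter H it was 1.35 ± 0.19 and 0.67 ± 0.15. All 4 of these values passed the edgeR test (adjusted p 0.0059 to 0.0432). Letter G held 3 WT-exercise and 5 WT-water libraries, and its fit called 7 higher and 3 lower of 575 microRNAs. Letter H held 2 libraries of each group, and its fit called 111 higher and 99 lower of 554. MiR-132-5p reached 0.49 ± 0.18 within G (adjusted p = 0.203) and 0.81 ± 0.16 within H (adjusted p = 0.0141, edgeR quasi-likelihood).

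**Figure D2:**
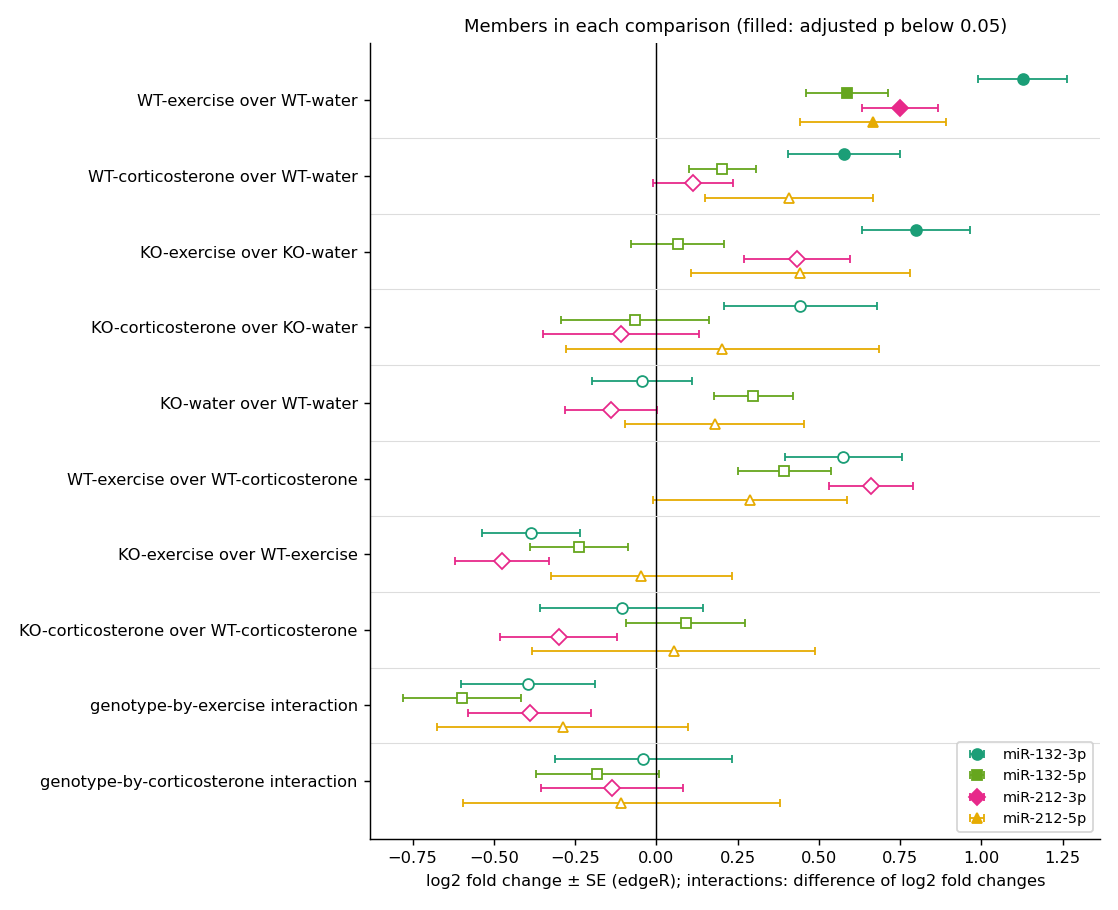
Log2 fold change (x axis, edgeR estimate ± SE) of the 4 strands in each comparison (y axis, first group over second; interactions are differences of log2 fold changes), filled where the adjusted p was below 0.05. All 4 strands were called in WT-exercise over WT-water, and miR-132-3p alone in WT-corticosterone over WT-water (0.58) and KO-exercise over KO-water (0.80).

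Corticosterone in wild-type mice went with a rise of miR-132-3p, while the other strands did not pass the test. The lowest, median and highest levels of miR-132-3p were 2801, 3349 and 5392 CPM in WT-corticosterone, against 2349, 2413 and 3393 CPM in WT-water. The ranges overlapped: 3 of 6 corticosterone libraries lay above every water library. MiR-132-3p rose by 0.58 ± 0.17 on the log2 scale (adjusted p = 0.0147, edgeR quasi-likelihood), in a comparison that called 24.9% of 547 microRNAs higher (136 higher and 93 lower, so that 59.4% of the calls were higher; 45.1% without scaling factors). By p, miR-132-3p ranked 143 of 547 here. The library WT-corticosterone 6 had the highest miR-132-3p of its group and was its only library with code letter H. Without it the log2 fold change was 0.38 ± 0.12 (adjusted p = 0.0291), and within letter G, where WT-water 6 and 7 are also left out, it was 0.31 ± 0.15 (adjusted p = 0.145, edgeR quasi-likelihood).

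MiR-212-3p had lowest, median and highest levels of 1120, 1402 and 1523 CPM in WT-corticosterone, inside the WT-water range of 1110 to 1623 CPM. Its log2 fold change was 0.11 ± 0.12 (adjusted p = 0.482, edgeR quasi-likelihood). MiR-132-5p averaged 805 ± 88.6 CPM in WT-corticosterone and 725 ± 55.2 CPM in WT-water (SD, n = 6 and 7). Of its 6 corticosterone libraries, 5 lay above every water library and WT-corticosterone 6 lay among them, and its log2 fold change was 0.20 ± 0.10 (adjusted p = 0.124). MiR-212-5p averaged 7.90 ± 3.14 CPM in WT-corticosterone and 6.26 ± 0.806 CPM in WT-water (log2 fold change 0.41 ± 0.26, adjusted p = 0.215, edgeR quasi-likelihood). WT-corticosterone 6 was again the highest library, at 13.4 CPM, and without it the log2 fold change was 0.12 ± 0.22 for miR-212-5p and 0.04 ± 0.11 for miR-212-3p.

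Set directly against each other in wild-type mice, exercise gave higher values than corticosterone for each strand, without a call. MiR-212-3p showed the clearest order: its 5 WT-exercise libraries, at 1971 to 2406 CPM, all lay above the 6 WT-corticosterone libraries, at 1120 to 1523 CPM, an order that 0.576% of the microRNAs tested showed in this direction. Both groups lie on the treated side of the divide marked by miR-126b-5p. The log2 fold change was 0.66 ± 0.13, the smallest p of the 521 microRNAs tested (0.0002), with an adjusted p of 0.107 (edgeR quasi-likelihood). EdgeR called 0% of the 521, while 20 had an unadjusted p under 0.05. DESeq2 called 1 microRNA and limma-voom 0. The 1 called by DESeq2 was miR-212-3p, at 0.67. Over all alternatives its log2 fold change ran from 0.61 to 0.76 and its adjusted p from 4.95e-05 to 0.799. MiR-132-3p was 0.58 ± 0.18 higher after exercise (unadjusted p = 0.0070, adjusted p = 0.740), and miR-132-5p 0.39 ± 0.14 higher (unadjusted p = 0.0165, adjusted p = 0.740, edgeR quasi-likelihood). In miR-132-5p, too, all 5 WT-exercise libraries (900 to 1220 CPM) lay above the WT-corticosterone libraries (636 to 878 CPM).

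In KO mice exercise went with higher miR-132-3p. Its levels were 3657, 4148, 4894, 4507 and 3598 CPM in KO-exercise, against a lowest, median and highest value of 1930, 2329 and 3256 CPM in KO-water. All 5 exercised libraries exceeded every water library, as in 3.44% of the microRNAs tested. MiR-132-3p rose by 0.80 ± 0.17 on the log2 scale, 1.74-fold (adjusted p = 0.0138, edgeR quasi-likelihood), where 3.06% of 523 microRNAs were called higher (16 higher and 5 lower by edgeR; 19 and 19 by DESeq2). The log2 fold change was 0.81 against KO-water 3, 4 and 6 and 0.65 against KO-water 1, 2 and 5, and both passed the test (adjusted p 0.0028 and 0.0265). Those fits called more microRNAs than the full one: 86 higher and 91 lower of 540, and 57 higher and 61 lower of 544. In the full comparison the call was lost without KO-exercise 2, 3 or 4 or KO-water 1, where the adjusted p reached 0.0954 and the log2 fold change 0.67. Within letter G the log2 fold change was 0.91 ± 0.21 (adjusted p = 0.182) and within letter H 0.50 ± 0.40 (adjusted p = 0.997, edgeR quasi-likelihood).

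MiR-212-3p had 1377, 1277, 1707, 1710.5 and 1649 CPM in KO-exercise, against a lowest, median and highest value of 967, 1130 and 1560 CPM in KO-water. The overlap came from 1 library, KO-water 5, which exceeded 2 of the exercised libraries. The log2 fold change of 0.43 ± 0.16 was not called (unadjusted p = 0.0200, adjusted p = 0.213). It was 0.54 without KO-water 5 (adjusted p = 0.0431). Against KO-water 3, 4 and 6 alone it was 0.46 (adjusted p = 0.0323) and against KO-water 1, 2 and 5 alone 0.28 (adjusted p = 0.279, edgeR quasi-likelihood). The fit against KO-water 3, 4 and 6 called 86 of 540 microRNAs higher. MiR-132-5p averaged 891 ± 113 CPM in KO-exercise and 877 ± 87.2 CPM in KO-water (SD, n = 5 and 6), a log2 fold change of 0.07 ± 0.14 (adjusted p = 0.871). MiR-212-5p averaged 9.17 ± 2.87 CPM in KO-exercise and 7.02 ± 2.63 CPM in KO-water, and its log2 fold change of 0.44 ± 0.34 was not called (adjusted p = 0.574, edgeR quasi-likelihood).

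After corticosterone, the 2 KO libraries had 3302 and 3453 CPM of miR-132-3p, both above the KO-water range of 1930 to 3256 CPM. This order was shown by 8.85% of the 576 microRNAs tested, and 0.521% were called higher. The log2 fold change of 0.44 ± 0.24 was not called (adjusted p = 0.770). It was 0.56 against KO-water 3, 4 and 6 (adjusted p = 0.0529), 0.34 against KO-water 1, 2 and 5 (adjusted p = 0.382) and 0.23 within letter H (adjusted p = 0.999, edgeR quasi-likelihood). MiR-212-3p had 1082 and 1122 CPM in KO-corticosterone, within the KO-water range of 967 to 1560 CPM. MiR-132-5p, at 841 and 859 CPM, and miR-212-5p, at 7.32 and 9.09 CPM, also lay within the KO-water ranges of 769 to 990 and 2.08 to 9.50 CPM.

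The genotypes were compared at each treatment, which sets levels side by side. Whether the locus responds alike without the transporter is asked by the interactions below. Under water, edgeR called 0% of 545 microRNAs, with 179 at an unadjusted p under 0.05, while DESeq2 called 115 and limma-voom 0. With KO-water 3, 4 and 6 alone edgeR called 354, and with KO-water 1, 2 and 5 alone it called 0. MiR-132-3p averaged 2459 ± 463 CPM in KO-water and 2574 ± 373 CPM in WT-water (SD, n = 6 and 7), a log2 fold change of -0.04 ± 0.15 (0.0050 and 0.023 with the sets of 3, -0.22 in letter G and 0.29 in letter H). MiR-212-3p averaged 1176 ± 203 CPM in KO-water and 1316 ± 159 CPM in WT-water, a log2 fold change of -0.14 ± 0.14 (-0.11 and -0.06 with the sets, -0.27 in letter G and 0.065 in letter H). MiR-132-5p was the member with the smallest p: 5 of 6 KO-water libraries lay above every WT-water library, and it averaged 877 ± 87.2 CPM in KO-water and 725 ± 55.2 CPM in WT-water. Its log2 fold change was 0.30 ± 0.12 (unadjusted p = 0.0273, adjusted p = 0.112, edgeR quasi-likelihood). It was 0.54 with KO-water 3, 4 and 6 alone (adjusted p = 0.00033) and 0.17 with KO-water 1, 2 and 5 alone (adjusted p = 0.877), and 0.22 in letter G and 0.44 in letter H, without a call.

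After exercise the 3p strands stood lower in KO than in WT mice, in a comparison where edgeR, DESeq2 and limma-voom each called 0 of 517 microRNAs (0%) and edgeR gave 5 an unadjusted p under 0.05. MiR-212-3p had 1277 to 1710.5 CPM in the 5 KO-exercise libraries and 1971 to 2406 CPM in the 5 WT-exercise libraries, so the groups did not overlap, an order in the lower direction that 0.58% of the microRNAs shared. Its log2 fold change was -0.47 ± 0.15, with the smallest p of the 517 (0.0068), and was not called (adjusted p = 0.999, edgeR quasi-likelihood). MiR-132-3p had the next smallest p (0.0245), and 4 of 5 KO-exercise libraries lay below every WT-exercise library. Its log2 fold change was -0.39 ± 0.15 (adjusted p = 0.999). Within letter G, the log2 fold change was -0.64 ± 0.23 for miR-212-3p and -0.33 ± 0.24 for miR-132-3p, and within letter H it was -0.24 ± 0.13 and -0.48 ± 0.18.

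The exercise response itself was set against genotype in a joint fit of the 4 groups. The difference in log2 fold change, KO minus WT, was -0.40 ± 0.21 for miR-132-3p (adjusted p = 0.311), -0.60 ± 0.18 for miR-132-5p (adjusted p = 0.190), -0.39 ± 0.19 for miR-212-3p (adjusted p = 0.281) and -0.29 ± 0.39 for miR-212-5p (adjusted p = 0.712, edgeR quasi-likelihood). All 4 estimates were negative, a smaller difference from water in KO than in WT mice, and none was called. Negative values were common in this fit, with a median of -0.05 over all 571 microRNAs. From the highest value down, the members ranked 359 to 450. The members' estimates share their water and exercise libraries with the comparisons above. Of the 571 microRNAs fitted, edgeR called 0%, 101 had an unadjusted p under 0.05 (22 higher and 79 lower), DESeq2 called 4 and limma-voom 0. MiR-132-5p, with an unadjusted p of 0.0029, ranked 6 by p. It was called by DESeq2 at -0.59 (adjusted p = 0.0496) and with KO-water 3, 4 and 6 alone at -0.66 (adjusted p = 0.0086), and was -0.43 with KO-water 1, 2 and 5 alone (adjusted p = 0.995), -0.42 in letter G and -0.69 in letter H. With KO-water 3, 4 and 6 alone edgeR called 252 microRNAs in this interaction. For miR-132-3p the difference was -0.25 with KO-water 3, 4 and 6, -0.44 with KO-water 1, 2 and 5, -0.07 in letter G and -0.76 in letter H. For miR-212-3p these values were -0.23, -0.44, -0.34 and -0.30, and for miR-212-5p -0.07, -0.37, -0.05 and -0.52. None of these was called (edgeR adjusted p 0.308 to 0.995).

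After corticosterone no member differed by genotype at an adjusted p below 0.05, and edgeR called 0% of 552 microRNAs (9 at an unadjusted p under 0.05, and 0 by DESeq2 and limma-voom). MiR-132-3p averaged 3378 ± 106 CPM in KO-corticosterone and 3671 ± 950 CPM in WT-corticosterone (SD, n = 2 and 6), and miR-212-3p averaged 1102 ± 28.4 and 1369 ± 142 CPM in the same order. Both KO-corticosterone libraries carry letter H and 5 of 6 WT-corticosterone libraries letter G, so genotype and letter can hardly be told apart here. In the genotype-by-corticosterone interaction the members' differences ran from -0.18 to -0.04 (0.013 to 0.16 without scaling factors, -0.27 to 0.085 with KO-water 3, 4 and 6, and -0.30 to -0.13 with KO-water 1, 2 and 5), and edgeR called 0% of 630 microRNAs, with 65 at an unadjusted p under 0.05 and 0 by DESeq2 and limma-voom.

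Ordered by group mean, miR-132-3p ran from KO-water (2459 CPM) through WT-water, KO-corticosterone, WT-corticosterone and KO-exercise to WT-exercise (5502 CPM), and each neighbouring pair of groups overlapped in range. MiR-212-3p also stood highest in WT-exercise and next in KO-exercise, and this was its only neighbouring pair with ranges that did not overlap. The lower 4 groups of miR-212-3p, from KO-corticosterone (1102 CPM) to WT-corticosterone (1369 CPM), overlapped one another in turn. MiR-132-5p was highest in WT-exercise (1065 CPM) and lowest in WT-water (725 CPM), and miR-212-5p likewise (9.82 and 6.26 CPM), with overlap between all neighbours.

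Ratios of strands counted in the same library do not depend on how libraries are scaled, and 24 group differences in log2 ratio were tested with exact two-sided permutation tests. MiR-132-3p outweighed miR-212-3p further in treated than in water mice. The log2 ratio of their counts was 1.16, 1.22, 1.29, 1.65 and 1.36 in WT-exercise, against a lowest, median and highest value of 0.81, 0.93 and 1.12 in WT-water. All 5 exercised libraries lay above the water group (difference 0.37, exact p = 0.0025, adjusted p = 0.0303). Within letter G the difference was 0.20 and within letter H 0.68 (exact adjusted p 0.149 and 0.536). Neither could be called, because so few libraries allow no adjusted p below 0.05. In WT-corticosterone the mean log2 ratio was 1.39 ± 0.26, against 0.96 ± 0.13 in WT-water (SD, n = 6 and 7), and 5 of 6 libraries lay above every water library. The difference was 0.43 (exact p = 0.0023, adjusted p = 0.0303), and 0.29 within letter G (exact adjusted p = 0.0762).

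In KO mice the log2 ratio of miR-132-3p to miR-212-3p was 1.43 ± 0.21 in KO-exercise and 1.06 ± 0.07 in KO-water (SD, n = 5 and 6), a difference of 0.37 (exact p = 0.0087, adjusted p = 0.0416). With 1 library left out at a time the call held only without KO-exercise 5 or KO-water 4 (difference 0.30 to 0.45, exact adjusted p 0.0416 to 0.0914). It was 0.36 against KO-water 3, 4 and 6 and 0.38 against KO-water 1, 2 and 5, with exact adjusted p-values of 0.245 and 0.149. Within letter G it was 0.48 and within letter H 0.21. Each of these subsets was too small for a call to be possible. In KO-corticosterone the ratios were 1.61 and 1.62, both above the KO-water range of 1.00 to 1.18. With 2 libraries against 6 the exact p could not go below 0.0714, the value reached. As a share of the counts of the AACAGUC seed, miR-132-3p took 72.9% ± 2.88 in KO-exercise, 75.4% ± 0.105 in KO-corticosterone and 67.6% ± 1.02 in KO-water, and 71.6% ± 2.63 in WT-exercise, 72.3% ± 3.46 in WT-corticosterone and 66.1% ± 1.99 in WT-water (SD). Between WT-exercise and WT-corticosterone, both treated, the log2 ratio differed by -0.06 (exact p = 0.688).

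**Figure D3:**
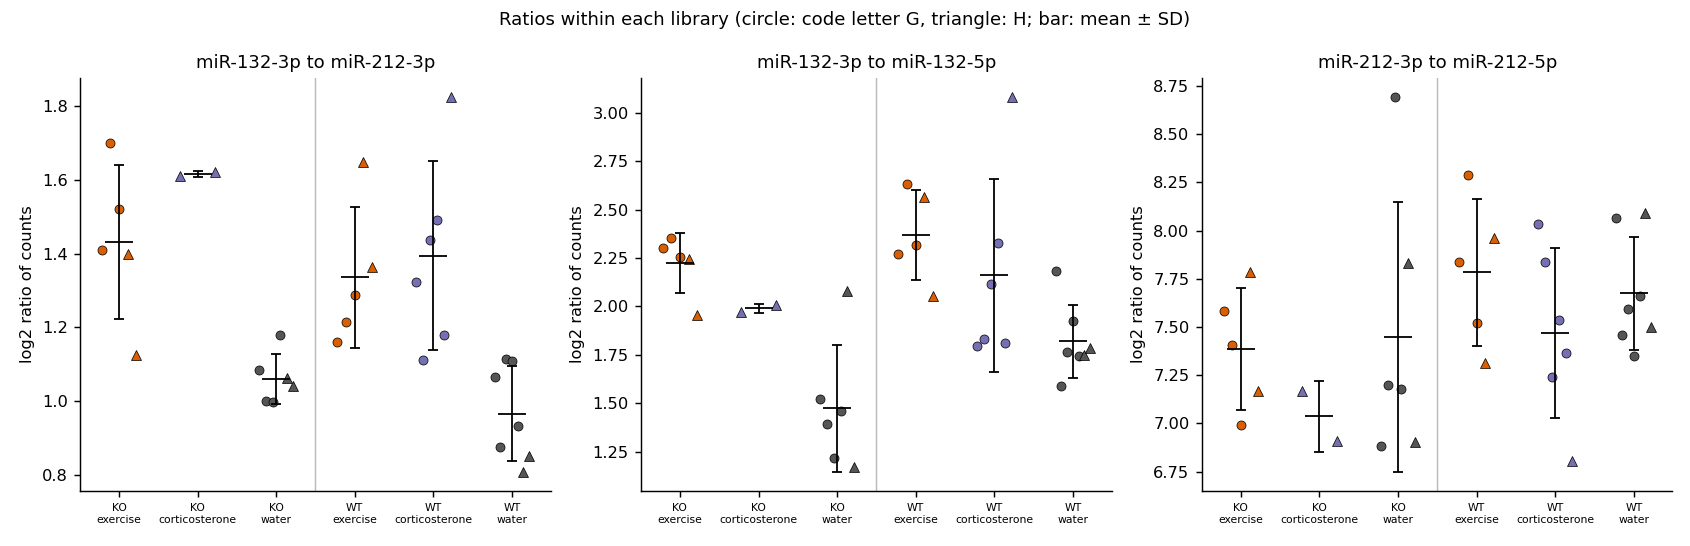
Log2 ratio of counts within each library (y axis) for 3 pairs of strands in the 6 groups (x axis); points are libraries, circles and triangles mark code letters G and H, and bars give mean ± SD. The miR-132-3p to miR-212-3p ratio lay above the WT-water range in 5 of 5 WT-exercise and 5 of 6 WT-corticosterone libraries.

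The strands of the miR-132 hairpin, which are cut from it as a pair, also differed in proportion between groups. The log2 ratio of miR-132-3p to miR-132-5p averaged 2.37 ± 0.23 in WT-exercise and 1.82 ± 0.19 in WT-water (SD, n = 5 and 7), a difference of 0.55 (exact p = 0.0051, adjusted p = 0.0404, 4 of 5 exercised libraries above every water library). The call was lost without WT-exercise 1, 2, 3 or 4 (exact adjusted p up to 0.0582). Within letter G (0.57) or H (0.54) too few libraries were left for a call to be possible. It averaged 2.22 ± 0.16 in KO-exercise and 1.47 ± 0.33 in KO-water (SD, n = 5 and 6), a difference of 0.75 (exact p = 0.0087, adjusted p = 0.0416), where the call held only without KO-exercise 5 or KO-water 5 (0.69 to 0.87 over all libraries left out in turn). It was 0.94 against KO-water 3, 4 and 6, 0.56 against KO-water 1, 2 and 5, 0.91 in letter G and 0.48 in letter H. These subsets were too small for a call to be possible. In WT-corticosterone it was 2.16 ± 0.50, and the difference of 0.34 from WT-water was not called (exact p = 0.101, adjusted p = 0.304). The library WT-corticosterone 6 had the highest ratio of all 31 libraries, 3.08, and without it the difference was 0.16. Between genotypes under water the ratio was 1.47 ± 0.33 in KO-water and 1.82 ± 0.19 in WT-water (SD, n = 6 and 7), a difference of -0.35 (exact p = 0.0373, adjusted p = 0.149). It was -0.47 without KO-water 5 (exact adjusted p = 0.0202) and -0.54 with KO-water 3, 4 and 6 (exact adjusted p = 0.0667). With KO-water 1, 2 and 5 it was -0.15, in letter G -0.44 and in letter H -0.14. The sets of 3 and the single letters were too small for a call to be possible. The log2 ratio of miR-212-3p to miR-212-5p averaged 7.04 to 7.78 by group, and none of its 8 differences was called (exact adjusted p 0.313 to 0.929).

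Over the 31 libraries, log2 CPM of miR-132-3p and miR-212-3p correlated with r = 0.83 (Spearman 0.79), and with r = 0.68 after each group was centred on its mean. Without WT-exercise 3 and 4, the libraries farthest from the median of miR-132-3p, r was 0.79. MiR-132-3p and miR-132-5p, from the same hairpin, gave r = 0.48 (Spearman 0.41), -0.14 after centring and 0.32 without WT-exercise 3 and 4. These are descriptions over libraries that share groups and code letters, with no test. With the leading axis of variation within groups, r after centring was 0.26 for miR-212-3p and -0.37 for miR-132-5p, and it was -0.02 and -0.06 for miR-212-5p and miR-132-3p.

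**Figure D4:**
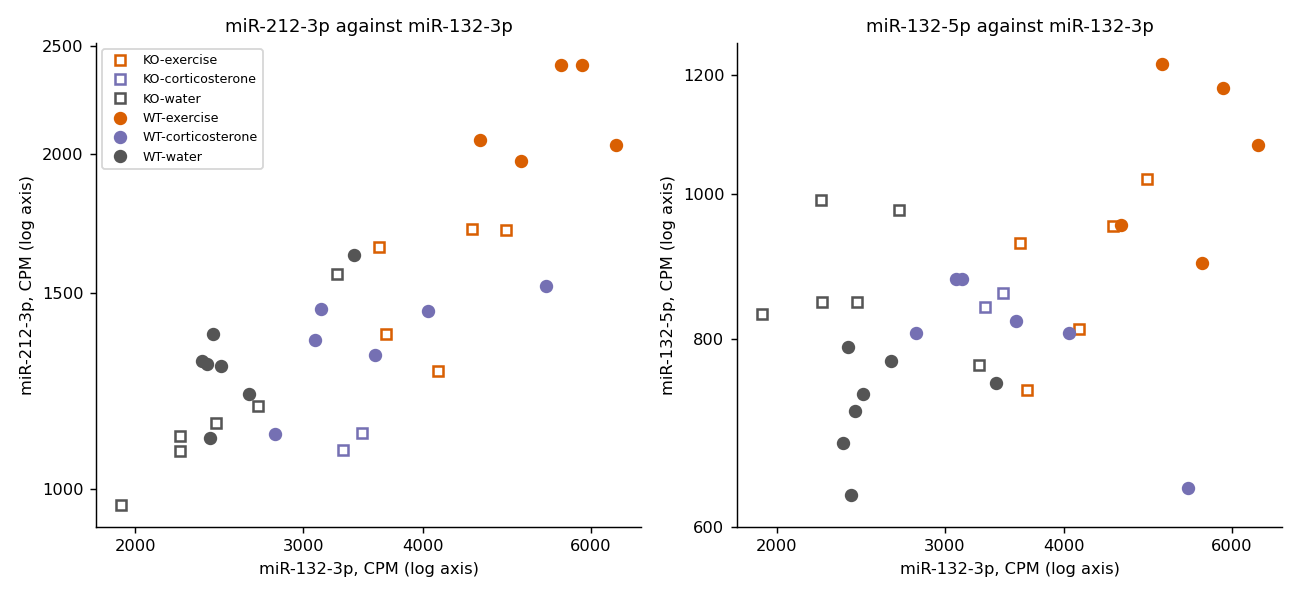
MiR-212-3p (left panel) and miR-132-5p (right panel) against miR-132-3p, in CPM on log axes, with 1 point per library coloured by treatment, filled for WT and open for KO. The 3p strands varied together (r = 0.83 over 31 libraries), while miR-132-5p varied more loosely with miR-132-3p (r = 0.48).

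The microRNAs whose log2 CPM followed miR-132-3p most closely over the 31 libraries, among 461 with a mean of at least 10 CPM, were miR-126b-5p (r = 0.79), miR-335-5p (0.77), let-7b-3p (0.76), miR-122b-3p (0.74) and miR-142a-3p (0.74). Of these 5, miR-122b-3p and miR-126b-5p were near 0 in water libraries. After centring each group, their r with miR-132-3p was 0.24, 0.44, 0.37, 0.09 and 0.03, so little of the likeness of miR-126b-5p, miR-122b-3p and miR-142a-3p lay within groups. MiR-335-5p, from an intron of the imprinted gene Mest, averaged 1334 CPM in WT-exercise and 942 CPM in WT-water, and 1374 CPM in KO-exercise and 810 CPM in KO-water. For miR-212-3p the closest were miR-379-3p (r = 0.57), miR-299a-3p (0.56), miR-3059-5p (0.53), miR-300-5p (0.52) and miR-335-5p (0.52). These are lower values than between the 3p strands themselves. By Spearman's rank correlation, 3 of the 5 microRNAs named for miR-132-3p and 2 of the 5 for miR-212-3p stayed among the 5 closest. After centring each group, 1 of the 5 and 0 of the 5 stayed. In the order named, the centred r with miR-212-3p was 0.42, 0.37, 0.37, 0.28 and 0.23.

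A list of other microRNAs described as regulated by neuronal activity was set beside all microRNAs tested, and no test of the list was run. Of 29 listed, WT-exercise over WT-water gave 6 higher and 2 lower of 29 tested, where 19.9% of all microRNAs tested were called higher and 12.7% lower, with a median log2 fold change of -0.18 beside 0.04 for all 553 microRNAs. The 3 most abundant called higher were miR-135a-5p, reported to target the transporter and a serotonin receptor (0.87 ± 0.17), miR-335-5p (0.54 ± 0.15) and miR-134-5p, which limits dendritic spine size through Limk1 (0.79 ± 0.21). Called lower were miR-128-3p, which restrains neuronal excitability (-0.70 ± 0.20), and miR-181a-5p (-0.52 ± 0.13).

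Corticosterone in WT mice gave 9 higher and 6 lower of 28 tested, where 24.9% of all were called higher and 17% lower, with a median of 0.07 beside 0.06 for all. The most abundant higher ones were miR-138-5p, which limits spine size through Lypla1 (0.52 ± 0.16), miR-191-5p (0.54 ± 0.16) and miR-135a-5p (0.86 ± 0.19). The most abundant lower ones were miR-128-3p (-0.59 ± 0.19), miR-181a-5p (-0.45 ± 0.11) and miR-381-3p (-0.43 ± 0.15). In KO-exercise over KO-water, miR-335-5p (0.80 ± 0.15) and miR-146a-5p, which restrains inflammatory signalling (1.38 ± 0.26), were higher and 0 were lower of 29 tested, where 3.06% of all were called higher and 0.956% lower, with a median of -0.10 beside -0.01. Adjusted p-values of all microRNAs named here were 0.0024 to 0.0282 (edgeR quasi-likelihood, Benjamini-Hochberg over all microRNAs tested).

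Markers of neurons and other cells were followed in the same comparisons. Of 32 markers, 6 were higher and 3 lower of 29 tested in WT-exercise over WT-water, beside 19.9% and 12.7% of all microRNAs. In WT-corticosterone over WT-water 10 were higher and 3 lower of 29, beside 24.9% and 17%, and in KO-exercise over KO-water 1 was higher and 0 lower of 27, beside 3.06% and 0.956%. Of the 4 microglia and blood immune markers, 3 were called higher in WT-exercise, 4 in WT-corticosterone and 1 in KO-exercise. None of the listed markers was at 0 in all 31 libraries. These 4 summed to 2493 to 10789 CPM in WT-exercise and 2568 to 8170.4 CPM in WT-corticosterone, against 2290 to 3281 CPM in WT-water. They summed to 3583 to 7104 CPM in KO-exercise, against 2368 to 8959 CPM in KO-water. The 2 oligodendrocyte markers summed to 1045 to 6042 CPM in WT-exercise, against 4799 to 6259 CPM in WT-water, and the 3 red blood cell markers to 454 to 1862 CPM in WT-exercise, against 1154 to 2415 CPM in WT-water. In the same order, the sums were 1123 to 5396 and 477 to 1197 CPM in WT-corticosterone. They were 1227 to 3562 and 388 to 920 CPM in KO-exercise, and 857 to 5102 and 495 to 1568 CPM in KO-water. The 5 neuronal markers summed to 366222 to 458090 CPM in WT-exercise, against 340776 to 429967 CPM in WT-water. Of these 5, 1 was called higher and 1 lower in WT-exercise, and 2 higher and 1 lower in WT-corticosterone. Of the 3 red blood cell markers, 0 were higher and 1 lower in WT-exercise, and 1 higher and 1 lower in WT-corticosterone. Of the 2 oligodendrocyte markers, 0 were higher and 1 lower in each. None of these was called in KO-exercise over KO-water. The part of the markers in the levels of the miR-132 and miR-212 strands was not tested. In whole hippocampus, a change in the number of cells of a type and a change in RNA per cell cannot be told apart.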

How the data were processed

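The authors deposited 5 tables of read counts per mature microRNA, 1 for each of 5 pairs of groups, over the same 1966 names. The counts are whole numbers that were not normalized. The tools named per the submitters' processing notes are BWA, featureCounts of the Subread package, limma 3.54.1 and cutadapt 2.3, with the GRCm38 (mm10) build and no role or order given. How reads matching several microRNAs were counted, and whether strand was used, are steps that no source used here gives. Per the labels' protocols, the Ion Total RNA-Seq Kit v2 and an Ion Torrent S5 sequencer were used. The 31 libraries outnumber the barcodes of the kit the labels name, so more than 1 pool was sequenced, and no label names the pool.

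The tables were merged so that each sample stood once. The 24 repeated columns were identical, and 0 columns were left over. In the table that sets KO against WT water mice, 1 column carries the label of a KO-exercise mouse and was used as such, and the other KO-water libraries came from other tables. Of the 1966 microRNAs, 391 were never counted, and RefSeq sequences matched 1675, all 4 members among them.

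Each comparison was fitted over all microRNAs on the libraries of its own groups with edgeR 4.0.16 in R 4.3.3 (filterByExpr, TMM, robust quasi-likelihood F test, Benjamini-Hochberg, called at an adjusted p below 0.05), and interactions on 4 groups. All 4 members passed the filter in every comparison. Standard errors come from the F statistic. CPM are counts over TMM-scaled totals of all 31 libraries, with mean ± SD. Log2 ratios used a pseudocount of 0.5 and exact permutation tests, adjusted over 24. Scripts were tested on simulated data. Where nothing says that mice were housed and handled separately, p-values measure the spread between these samples.

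The members, the list of activity-regulated microRNAs and the markers were chosen with earlier results of these data known. Named microRNAs were the members, the 5 closest to each 3p strand by Pearson r, and the 3 most abundant called of the activity list in each direction. The alternatives were DESeq2 1.42.0, edgeR with DESeq2 size factors or with none, limma-voom (limma 3.58.1), no count filter, a minimum mean of 10 CPM, all 6 groups in one fit, a block by replicate number, the code letter and the leading within-group axis (38.8% of the variance after centring groups) as covariates, each letter alone, each set of KO-water libraries alone, and each library left out. The main fits took same-numbered replicates as unpaired. The median correlation of their deviations ran from -0.46 (KO-corticosterone over WT-corticosterone, 2 pairs) to 0.23 (KO-exercise over KO-water, 5 pairs). The highest for a single pair was 0.63, in WT-exercise over WT-corticosterone.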

Additional observations from a re-analysis of the deposited data

Results flagged for a closer look

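Of 35 sets of 5 to 7 library values examined, 4 held a library far from the others, where chance alone flags about 1 in 20. MiR-132-3p stood at 3393 CPM in WT-water 1, while the other 6 WT-water libraries lay at 2349 to 2633 CPM. MiR-132-5p stood at 636 CPM in WT-corticosterone 6, the library with the highest miR-132-3p of its group, while the other 5 lay at 808 to 878 CPM. MiR-212-3p stood at 1560 CPM in KO-water 5, while the other 5 KO-water libraries lay at 967 to 1186 CPM. The log2 ratio of miR-132-3p to miR-132-5p was 1.96 in KO-exercise 5 and 2.24 to 2.35 in the other 4 KO-exercise libraries.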

How the results depend on the processing

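Values are log2 fold changes unless called ratios, and the cause of a change was not tested. In WT-exercise over WT-water, miR-132-3p (1.02 to 1.35) and miR-212-3p (0.64 to 0.84) kept their direction and call in 24 of 24 alternatives. MiR-132-5p lost its call with no count filter (0.52), the replicate block (0.56) and letter G alone (0.49). MiR-212-5p lost it with no scaling factors (0.55), no filter (0.60), the joint fit (0.63), the replicate block (0.63), the letter as covariate (0.65), letter G (0.60) and letter H (0.84). MiR-132-3p lost its call in WT-corticosterone with the block (0.53) and letter G (0.31), and in KO-exercise over KO-water with no filter (0.71), the block (0.80), letter G (0.91) and letter H (0.50). No label pairs the replicate numbers across groups, and the block changed no other called fold change.

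Calls were gained by miR-212-3p in KO-exercise over KO-water with the within-group axis (0.44) and KO-water 3, 4 and 6 alone (0.46), and in WT-exercise over WT-corticosterone with DESeq2 (0.67), the joint fit (0.67) and the axis (0.66). MiR-132-5p gained a call in KO-water over WT-water with DESeq2 (0.33), the axis (0.29) and KO-water 3, 4 and 6 (0.54), and in the exercise interaction with DESeq2 (-0.59), the axis (-0.58) and KO-water 3, 4 and 6 (-0.66).

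Within one letter or one set of KO-water libraries, no ratio was called. For miR-132-3p to miR-132-5p the differences were 0.57 in G and 0.54 in H in WT-exercise. In KO-exercise they were 0.91 in G, 0.48 in H, 0.94 with KO-water 3, 4 and 6, and 0.56 with 1, 2 and 5. For miR-132-3p to miR-212-3p they were 0.20 in G and 0.68 in H in WT-exercise, and 0.29 in G in WT-corticosterone. In KO-exercise this ratio gave 0.48 in G, 0.21 in H, and 0.36 and 0.38 with the same sets. Apart from WT-corticosterone in letter G, these subsets held too few libraries for any exact p to pass after adjustment. They therefore could not test whether a call holds.

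The sign changed only in uncalled values. With no scaling factors these were miR-212-3p in WT-corticosterone over WT-water (-0.010), miR-132-5p (0.099) and miR-212-3p (0.049) in KO-corticosterone over KO-water, and all 4 members in the corticosterone interaction (0.16 for the 3p and 0.013 for the 5p strand of miR-132, 0.060 and 0.10 for those of miR-212). MiR-132-5p in KO-exercise over KO-water gave -0.0062 with DESeq2, -0.0073 with its size factors, -0.017 with no filter, -0.0057 at 10 CPM and -0.13 with KO-water 3, 4 and 6. In KO-corticosterone over KO-water, the block gave miR-212-5p -0.0063, miR-212-3p 0.0070 and miR-132-5p 0.047, and with sets of KO-water miR-212-3p gave 0.022 and miR-132-5p 0.046. In KO-water over WT-water, miR-132-3p gave 0.020 at 10 CPM, 0.29 in letter H, and 0.0050 and 0.023 with the 2 sets, and miR-212-3p 0.065 in letter H. In KO-corticosterone over WT-corticosterone, the block gave 0.22 for miR-132-3p and the letter as covariate -0.67 for miR-212-5p. In the corticosterone interaction miR-132-3p gave 0.0036 with limma-voom, 0.012 with no filter, 0.067 with the block and 0.070 with KO-water 3, 4 and 6, and miR-212-5p gave 0.054 with limma-voom and 0.085 with KO-water 3, 4 and 6. The miR-212-3p to miR-212-5p ratio gave -0.16 in WT-exercise in letter H, and in KO-exercise 0.11 in letter H and 0.082 with KO-water 1, 2 and 5. The miR-132-3p to miR-212-3p ratio in KO-exercise over WT-exercise gave -0.24 in letter H.

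Leaving out each library in turn changed a call or a sign in these ranges. For WT-exercise over WT-water they were miR-212-5p 0.53 to 0.77, the miR-132-3p to miR-132-5p ratio 0.48 to 0.63 (call lost without WT-exercise 1, 2, 3 or 4) and the miR-212-3p to miR-212-5p ratio -0.017 to 0.23. For KO-exercise over KO-water they were miR-132-3p 0.67 to 0.91, miR-132-5p -0.051 to 0.10, miR-212-3p 0.33 to 0.54, the miR-132-3p to miR-132-5p ratio 0.69 to 0.87, the miR-132-3p to miR-212-3p ratio 0.30 to 0.45 (both called in 2 of 11 fits) and the miR-212-3p to miR-212-5p ratio -0.18 to 0.19. For the others they were miR-132-5p in KO-corticosterone over KO-water -0.11 to 0.030, and in KO-water over WT-water miR-132-3p -0.16 to 0.10 and the miR-132-3p to miR-132-5p ratio -0.47 to -0.28. MiR-212-5p in KO-exercise over WT-exercise ran from -0.20 to 0.069. In KO-corticosterone over WT-corticosterone, miR-132-3p ran from -0.16 to 0.038, miR-212-5p from -0.12 to 0.28 and the miR-132-3p to miR-132-5p ratio from -0.24 to 0.014. In the corticosterone interaction, miR-132-3p ran from -0.13 to 0.094 and miR-212-5p from -0.29 to 0.11, and the miR-132-3p to miR-212-3p ratio of WT-exercise over WT-corticosterone from -0.14 to 0.027.

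Counts of microRNAs called moved more widely. They were 180 and between 10 and 282 in WT-exercise over WT-water, 229 and between 135 and 292 in WT-corticosterone over WT-water, 21 and between 1 and 177 in KO-exercise over KO-water, 3 and up to 56 higher with 48 lower in KO-corticosterone over KO-water, 0 and up to 354 in KO-water over WT-water, 0 and up to 252 in the exercise interaction, and 0 and up to 213 in the corticosterone interaction. Without scaling factors the median over all microRNAs tested moved by more than 0.1 in 6 comparisons: it was -0.07 in WT-exercise over WT-water (0.04 with them), -0.07 in WT-corticosterone over WT-water (0.06), 0.03 in KO-corticosterone over KO-water (-0.12), -0.22 in KO-water over WT-water (-0.08), 0.16 in the exercise interaction (-0.05) and 0.22 in the corticosterone interaction (0.03).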
